A study of Mus musculus with 4 samples.

Results

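The genotype dependence of the tumour change was the difference of 2 differences. For each gene, the log2 signal of pre-injection cells was subtracted from that of tumour cells within p65-/- and within p65+/+ cells, and the p65+/+ value was then subtracted from the p65-/- value. A positive difference means that the gene moved up in p65-/- relative to p65+/+ cells, and a negative one the reverse. It was computed for every gene that reached its floor, the median signal of the array, on at least 1 array, which was 12922 of 18194 genes with a probe set of their own. The cells were mouse embryonic fibroblasts, and there was 1 array for each of 4 groups, namely p65-/-RasTumor, p65-/-Ras, p65+/+RasTumor and p65+/+Ras. Cells of all groups had been infected with the retroviral vector pBabe-HRASG12V-Hygro, which carries an oncogenic HRAS and hygromycin resistance. The p65-/- cells lack Rela, which encodes the NF-kB subunit p65, and the p65+/+ cells are wild type for it. The Ras groups are cells before injection, and the RasTumor groups are cells taken from a tumour in a SCID mouse with collagenase, returned to culture and kept in hygromycin for 2 weeks. SCID mice lack functional T and B lymphocytes and keep other immune cells. The sources used here do not give the number of embryos, cell clones, mice or tumours per array. Genotype therefore cannot be told apart from the line of cells, nor passage through a tumour from the particular tumour taken.

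NF-kB is a family of transcription factors held in the cytoplasm by inhibitor proteins until a signal such as a cytokine releases them. Its p65 subunit carries a strong activation domain and drives genes of inflammation, cell adhesion and survival. Oncogenic Ras signals through the MAP kinase pathway and other routes, and fibroblasts carrying it can form tumours in mice that lack lymphocytes.

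Single arrays allow no replicate check, no test and no error from replicates, and "higher" and "lower" describe the arrays at hand. A gene was counted at a difference of at least 1 on the log2 scale, which is 2-fold. An array under its floor was set to the floor, and a value that rests on this is given as "at least". Different probe sets of 1 gene, which share their RNA, differed with a within-gene standard deviation of 0.34 in the p65-/- change, 0.15 in the p65+/+ change and 0.39 in the difference (4037 genes). The number of arrays limits the precision of every value.

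The labels were checked first. Rela gave a signal of 209 in p65-/- tumour and 214 in p65-/- pre-injection cells, against 1457 and 1479 in p65+/+ tumour and pre-injection cells, and its difference of tumour changes was -0.01. All 7 fibroblast markers reached the floor on all 4 arrays, with a summed signal of 45798, 40288, 34735 and 39518 in that order. The macrophage markers Adgre1, Cd68 and Ptprc lay under the floor on all arrays, as did the endothelial markers Cdh5, Tek, Tie1 and Kdr and the epithelial markers Cdh1 and Epcam. Other markers of these cells did reach it. The macrophage marker Csf1r had 243, 236, 198 and 200 in the same order, and Cd14 had 220, 330, 809 and 743. The endothelial marker Pecam1 passed it in p65-/- tumour and pre-injection cells only, with 99.9 and 94.4. Summed over 6 macrophage markers, the signal was 912 and 854 in p65-/- tumour and pre-injection cells and 1252 and 1185 in the p65+/+ cells. A few single markers moved in p65-/- tumour cells. Tyrobp, an adaptor of myeloid cells, had 278 there, against 63.7 in p65-/- pre-injection, 62.2 in p65+/+ tumour and 55.2 in p65+/+ pre-injection cells. The keratin gene Krt19 had 2194, against 338, 45.7 and 49.8, and Krt18 had 127, against 30.7, 35.9 and 39.3. Eif2s3y, a gene of the Y chromosome, had 229, against 34.7, 9.86 and 6.87, all under the floor. The Y-linked Uty and the probe set used for Kdm5d lay under the floor on every array, while 1 other Kdm5d probe set reached a floor and gave a positive difference. The X-linked Xist had 168 in p65+/+ pre-injection cells. It lay under the floor in p65-/- tumour (55.3), p65-/- pre-injection (56.4) and p65+/+ tumour cells (52.2). The part of these differences in the results below was not tested, and in bulk RNA fewer cells of a type cannot be told apart from less RNA per cell.

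Most of the genotype dependence was a gain in p65-/- cells that p65+/+ cells did not show. The difference was 1 or more in 1889 of the 12922 genes (14.6%) and -1 or less in 352 (2.72%), so 84.3% of the 2241 genes counted were positive. Over all genes, p65-/- cells had a median tumour change of 0.02 and p65+/+ cells one of 0, and the median difference was 0.05. The spread over genes was wider in p65-/- cells, with a standard deviation of 0.69, against 0.33 in p65+/+ cells. In p65-/- cells 1755 genes (13.6%) were higher and 192 (1.49%) lower in tumour than in pre-injection cells. In p65+/+ cells 118 (0.913%) were higher and 93 (0.72%) lower. The genes at the edge of the count were Brox, just inside at 1.0008, and Etnk1, just outside at 0.9999, and on the negative side Ctsw at -1.0001 and Smg5 at -0.9987.

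**Figure D1:**
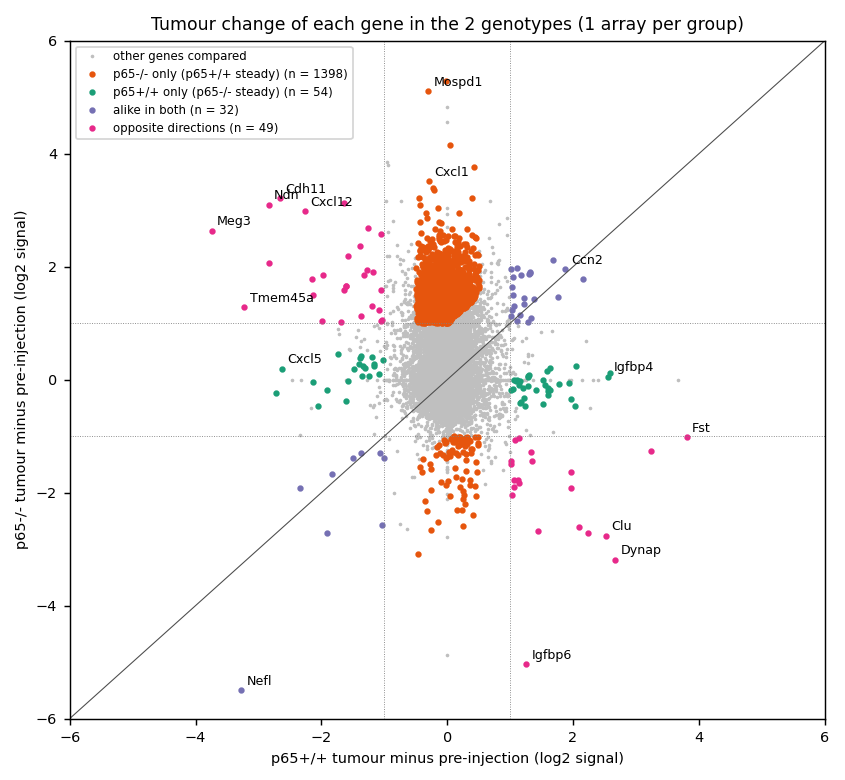
Log2 tumour change of each of 12922 genes in p65-/- cells (vertical axis) against that in p65+/+ cells (horizontal axis), 1 array per group, with arrays under their floor set to it. Dotted lines mark a change of 1 and the diagonal marks an equal change. The points spread upward in p65-/- cells, with 1398 genes changed in p65-/- cells alone, 54 in p65+/+ cells alone, 32 alike and 49 in opposite directions.

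Genes were then sorted by which genotype moved. A gene counted as changed in 1 genotype alone where its change was 1 or more in size there, under 0.5 in the other, and the difference was also 1 or more. That held for 1308 genes higher (10.1%) and 90 genes lower (0.696%) in p65-/- tumour cells with p65+/+ steady. It held for 33 genes higher (0.255%) and 21 genes lower (0.163%) in p65+/+ tumour cells with p65-/- steady. In another 56 genes p65-/- cells changed while both p65+/+ arrays lay under their floors, and in 22 genes the reverse held. A change of 1 or more in both genotypes was seen in 81 genes, of which 32 (0.248%) moved the same way and 49 (0.379%) in opposite directions. The 32 were 1.64% of the 1947 genes changed in p65-/- cells and 15.2% of the 211 changed in p65+/+ cells. For the 49, the shares were 2.52% and 23.2%.

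The 4 arrays did not contribute equally to these counts. Of the 1889 genes with a positive difference, 1057 (56.0%) had the p65-/- pre-injection array alone at least 1 below the other 3 arrays, which lay within 1 of each other. In 67 the p65-/- tumour array alone was high, in 17 the p65+/+ pre-injection array alone was high, in 9 the p65+/+ tumour array alone was low, and in 739 no array stood apart in this way. The 352 genes with a negative difference were spread more evenly, with 53 high in p65-/- pre-injection cells alone, 36 low in p65-/- tumour cells alone, 29 high in p65+/+ tumour cells alone, 3 low in p65+/+ pre-injection cells alone and 231 with no array apart. Of the 1308 genes higher in p65-/- cells alone, 1157 (88.5%) had a p65-/- tumour signal within 2-fold of both p65+/+ arrays, 45 were 2-fold or more above both and 49 below both. The p65-/- tumour level was thus close to p65+/+ levels in most of them. Without the genes whose p65-/- pre-injection array alone was low, 832 positive and 352 negative differences remained, and the median difference was 0.00. Such genes have a positive difference by definition. Leaving them out, here and in the gene lists below, therefore removes positive differences only, and the 352 negative ones had to remain. The p65-/- pre-injection array had 11153 probe sets with a signal of 200 or more, against 13015 on the p65-/- tumour, 13333 on the p65+/+ tumour and 13419 on the p65+/+ pre-injection array. Its part in the positive differences was not tested, and no difference can be computed without it.

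Positive differences were more frequent among long genes and among genes of middle to high signal. Over 5 equal groups ordered by genomic span, with medians of 3.90, 11.2, 22.0, 43.2 and 118 kb, 5.17%, 9.72%, 13.9%, 22.4% and 22.2% of genes had a difference of 1 or more. The share with the p65-/- pre-injection array alone low was 2.10%, 5.99%, 8.95%, 16.3% and 13.8% over the same groups. By mean signal, the share with a difference of 1 or more was 2.44%, 7.89%, 17.2%, 23.8% and 21.8% from the dimmest to the brightest of 5 equal groups. For differences of -1 or less the shares ran between 1.98% and 3.38% over the groups by span and between 1.74% and 3.29% over those by signal.

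**Figure D2:**
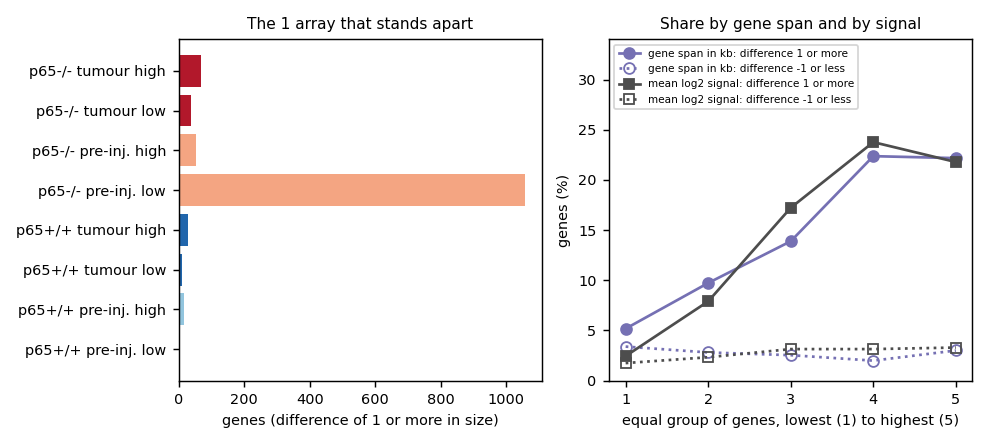
Left, number of genes with a difference of 1 or more in size, by the 1 array that lay at least 1 (log2) from the other 3; the 1057 genes low in p65-/- pre-injection cells make the longest bar. Right, percentage of genes with a difference of 1 or more (solid lines) or -1 or less (dotted lines) in 5 equal groups by genomic span and by mean signal; the solid lines climb to 22.4% and 23.8% in the fourth group and the dotted lines stay low.

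The 49 genes that moved in opposite directions each rest on a change in both genotypes. Many also rest on an array under its floor, since 18 of the 49 had all 4 arrays at or above it. With the floor at the 70th percentile 23 of the 49 were still opposite. In the authors' deposited table, where 9826 genes were compared, 16 were. In 28 of the 49 the signal was higher in p65-/- tumour cells and lower in p65+/+ tumour cells than before injection. Secreted, adhesion and imprinted genes were among those named. Cxcl12, a chemokine that attracts cells bearing the receptor Cxcr4, had 2224 in p65-/- tumour and 281 in p65-/- pre-injection cells, against 203 in p65+/+ tumour and 969 in p65+/+ pre-injection cells. Its changes were 2.99 and -2.26 and the difference was 5.24, positive in 3 of 3 probe sets. Thus Cxcl12 was highest in the p65-/- tumour and lowest in the p65+/+ tumour. Cdh11, a cadherin of mesenchymal cells, had 812 and 56.8 in the p65-/- cells and 13.9 and 585 in the p65+/+ cells, a difference of at least 5.87. Tmem45a, a membrane protein gene, had 1565, 642, 99.8 and 934 in the same order, a difference of 4.51. Bhlhb9, an X-linked gene, had 935, 224, 11.3 and 659, a difference of at least 4.90. In all 4 genes the p65+/+ tumour was the lowest array, and for Cdh11 and Bhlhb9 it lay under the floor.

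Several imprinted genes, which are expressed from 1 parental copy, shared this pattern. Ndn, a growth-restraining MAGE family protein, had 1282 in p65-/- tumour and 150 in p65-/- pre-injection cells, against 24.1 in p65+/+ tumour and 661 in p65+/+ pre-injection cells. Its difference was at least 5.93, and 7 of 7 probe sets were positive. Meg3, a maternally expressed noncoding RNA, had 545 and 20.4, against 28.6 and 1239, a difference of at least 6.38, positive in 8 of 9 probe sets. Peg12 had 300 and 61.5, against 11.0 and 412, a difference of at least 3.93. Each of these 3 was above its floor in p65-/- tumour and p65+/+ pre-injection cells and dim in p65+/+ tumour cells. The other genes of the same imprinted cluster as Ndn and Peg12 did not all follow. Magel2 had 260, 204, 275 and 247, a difference of 0.20, and Mkrn3 lay under the floor on all arrays. Ube3a had 396, 88.7, 645 and 699, low in p65-/- pre-injection cells alone. Rian and Mirg, dim genes of the same cluster as Meg3, had differences of -0.16 and 0.04, though 3 of 4 Rian probe sets were positive. Of 18 imprinted genes compared, 7 had a difference of 1 or more (14.6% over all genes) and 0 had one of -1 or less (2.72%), with a median of 0.18 against 0.05 over all genes. After scaling to the 75th percentile that median was -0.11, against -0.23 over all genes. The remaining 4 were the adaptor gene Grb10, the zinc finger gene Peg3, Sgce and Dlk1. For Dlk1, 1 of 2 probe sets was positive and the other negative. In none of the 7 was the p65-/- pre-injection array alone low. For Meg3, Ndn, Peg12 and Dlk1 that could not occur, because their p65+/+ arrays lay more than 1 apart. Their p65+/+ changes were -3.74, -2.84, -2.15 and -2.33.

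Contractile and matrix genes also stood among the 28. Tagln, an actin-binding protein of smooth muscle and activated fibroblasts, had 1860 and 312 in the p65-/- cells and 417 and 865 in the p65+/+ cells, a difference of 3.63. Ccn3, a matricellular protein, had 399, 39.7, 358 and 1066, a difference of at least 3.76. The p65-/- tumour array was the highest of the 4 for Tagln, whereas for Ccn3 the p65+/+ pre-injection array was.

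In the other 21 genes the signal was lower in p65-/- tumour and higher in p65+/+ tumour than in pre-injection cells. Igfbp6, a binding protein of insulin-like growth factor II, had 82.5 in p65-/- tumour and 3044 in p65-/- pre-injection cells, against 434 in p65+/+ tumour and 182 in p65+/+ pre-injection cells. The difference of -6.29, a lower limit in size, rested mostly on the p65-/- change of -5.04. Fst, a secreted inhibitor of activins, had 153 and 312, against 7122 and 510, a difference of -4.83 that rested mostly on the p65+/+ change of 3.81 and was negative in 2 of 2 probe sets. The extremes lay on different arrays, p65-/- pre-injection for Igfbp6 and p65+/+ tumour for Fst.

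Clu, the secreted chaperone clusterin, had 86.9 and 629, against 1261 and 220, and was negative in 4 of 4 probe sets. Its difference was -5.28, a lower limit in size. Mlycd, a mitochondrial and peroxisomal enzyme that breaks down malonyl-CoA, had 95.02 and 622, against 633 and 134, a difference of -4.95. Dynap had 22.8 and 844, against 713 and 112, a difference of -5.86, again a lower limit in size. In these 3 genes the p65-/- tumour and p65+/+ pre-injection arrays were the 2 low ones. For Mlycd the authors' deposited table had smaller quotients, -1.16 and 1.15, than the signals give, -1.41 and 1.32. The 2 low arrays were the same for Egln3, an oxygen-sensing prolyl hydroxylase, with 308 and 834, against 611 and 302 (difference -2.45), and for the chemokine gene Ccl5, with 109 and 297, against 264 and 104 (-2.78).

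**Figure D3:**
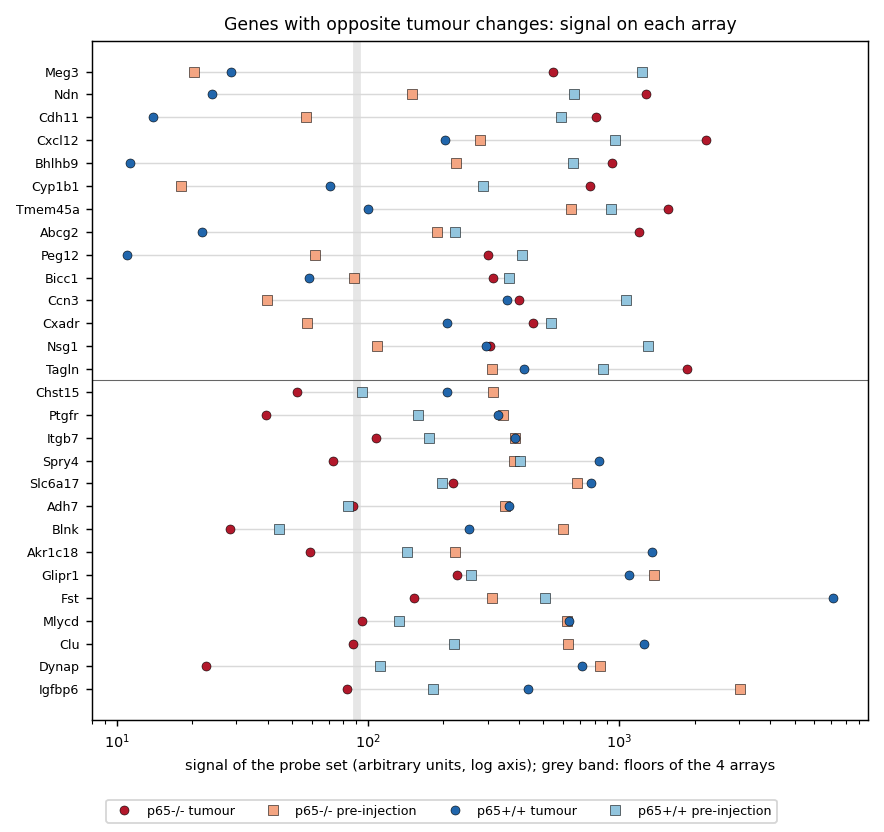
Signal (log axis, arbitrary units) on each of the 4 arrays for 14 genes higher in p65-/- and lower in p65+/+ tumour cells (above the line) and 14 genes with the reverse pattern (below it), the ones with the largest differences in each direction; the grey band marks the floors. Above the line the p65-/- pre-injection and p65+/+ tumour arrays are the 2 low ones in every gene shown, as for Ndn with 150 and 24.1; below it the p65-/- tumour and p65+/+ pre-injection arrays are, except for Fst and Spry4, where p65-/- pre-injection lies under p65+/+ pre-injection.

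The 32 genes that moved alike hold 23 that were higher and 9 that were lower in the tumour cells of both genotypes. Ccn2, a matricellular protein induced by TGF-beta and by mechanical load, had 4283 and 1102 in p65-/- tumour and pre-injection cells and 992 and 270 in the p65+/+ cells. The changes were 1.96 and 1.88, a difference of 0.08, although the p65-/- levels were above the p65+/+ levels in both states. Its relative Ccn1 changed by 1.09 and 1.33. Tnc, the matrix glycoprotein tenascin C, had 956 and 347, against 4859 and 1429, and changed by 1.46 and 1.77. The kinase gene Plk2 changed by 1.87 and 1.31, and Sar1b, a GTPase of vesicle export from the endoplasmic reticulum, by 1.78 and at least 2.15. The mitochondrial folate enzyme gene Aldh1l2 changed by 1.90 and 1.31.

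Among the 9 lower in both, Nefl, a neurofilament subunit, had 28.2 and 4178 in p65-/- tumour and pre-injection cells and 11.6 and 894 in the p65+/+ cells. Both tumour arrays lay under their floors, so the changes were at least -5.49 and -3.27 and their difference has no fixed size. The stromelysin genes Mmp3 and Mmp10, which encode matrix-degrading proteases, followed. Mmp3 had 74.8 and 612, against 1738 and 6517, and Mmp10 had 65.2 and 350, against 224 and 1131. In both genes the p65+/+ levels exceeded the p65-/- levels in each state while the direction was shared. The collagen VI chain gene Col6a3 changed by -1.30 and -1.37 and Plac8 by -1.68 and at least -1.83.

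Genes that moved in p65+/+ cells while p65-/- cells stayed steady were few, 54 in all. Those higher in p65+/+ tumour cells included Igfbp4, a binding protein of insulin-like growth factors, with 3823 and 3691 in p65-/- tumour and pre-injection cells and 1890 and 320 in the p65+/+ cells. The p65-/- change was 0.05 and the p65+/+ change 2.56, and 6 of 6 probe sets were negative in the difference of -2.51. The histone gene H1f2 had 636 and 874, against 967 and 237 (-2.49), and the urea transporter gene Slc14a1 had 94.7 and 50.2, against 984 and 164 (-2.48, with p65-/- pre-injection cells under the floor). Smim27 had 125 and 159, against 470 and 121. Chac1, a glutathione-degrading enzyme of the amino acid stress response, had 513 and 535, against 1203 and 314 (-2.00). In H1f2 the p65+/+ pre-injection array was the one apart from the other 3, by being low, and in Slc14a1, Smim27 and Chac1 the p65+/+ tumour array was, by being high.

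Lower in p65+/+ tumour cells with p65-/- steady were several secreted signals. Cxcl5, a neutrophil chemokine, had 100 and 5.40 in p65-/- tumour and pre-injection cells and 369 and 2277 in p65+/+ cells, a difference of at least 2.82. Cx3cl1, the membrane-tethered chemokine fractalkine, had 893 and 656, against 207 and 689 (2.18). Bmp2, a bone morphogenetic protein, had 99.5 and 118, against 11.0 and 608 (at least 2.48). Saa3, an acute-phase protein gene, had 70.1 and 95.6, against 313 and 1380, and Casp12, a caspase gene, had 118 and 37.1, against 83.1 and 239. Apart from Cx3cl1, the p65-/- signals of these genes lay near or under the floor in both states.

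A further group was dim on both arrays of the steady genotype, so that a change there could not have been measured downward. In p65+/+ cells alone, Lum, the matrix proteoglycan lumican, had 2151 and 169 in tumour and pre-injection cells, against 27.7 and 30.1 in p65-/- cells. The cytokine gene Il6 had 1124 and 254, against 68.1 and 9.44, and the collagenase gene Mmp13 moved down, with 21.0 and 511, against 13.0 and 11.6. In p65-/- cells alone, Grb10, an imprinted adaptor of growth factor receptors, had 2654 in tumour and 93.1 in pre-injection cells, against 33.2 and 33.9 in p65+/+ cells. The activin beta B subunit gene Inhbb had 2085 and 255, against 28.5 and 57.6, and the neuropeptide Y receptor gene Npy5r had 2069 and 52.9, against 30.7 and 36.7. Ifitm1, an interferon-induced membrane protein, moved down, with 43.7 and 2708, against 56.1 and 69.8.

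Of the genes higher in p65-/- tumour cells with p65+/+ steady, 5 were named by the size of the difference. None met the rule above for a low p65-/- pre-injection array alone. In Mospd1 and Spcs3 that array was still more than 1 below each other array. The other 3 arrays of these genes did not lie within 1 of each other. Mospd1, a gene with 1 probe set, had 3013 and 81.4 in p65-/- tumour and pre-injection cells and 228 and 282 in p65+/+ cells, a difference of at least 5.41. Spcs3, a subunit of the signal peptidase, had 4253 and 404, against 1282 and 1502 (3.63). Cxcl1, a neutrophil chemokine, had 1664 and 145 in p65-/- tumour and pre-injection cells and 91.2 and 114 in p65+/+ cells, and all 3 probe sets were positive. Cep128, a centriole gene, had 3420 and 52.96, against 88.2 and 93.4, although the mean of its probe sets gave a difference of 1.30 in place of 5.30. Ccdc80, a matrix-associated secreted protein gene, had 818 and 84.2, against 122 and 166. In these 3 the p65-/- tumour array alone was high, as it was in 67 genes with a positive difference. Others of the 67 were the collagen genes Col1a1, with 5962 and 2409, against 2046 and 2734, and Col5a2, with 5689 and 2113, against 1961 and 2677. Cav1, the coat protein of caveolae, had 4175 and 1655, against 1152 and 1776, and the p53-induced cyclin gene Ccng1 had 2125 and 509, against 347 and 349. These 4 genes were named after their values were seen. The authors' deposited table, which gives the signed quotient of 2 log2 levels, did not show all of these sizes. For the p65-/- tumour change the authors' deposited table had 1.07 for Mospd1, 1.23 for Cep128 and 1.02 for Npy5r, where the series matrix signals give 1.82, 2.05 and 1.92. For Spcs3, by contrast, the authors' deposited table had 1.38 and the signals give 1.39. The large p65-/- tumour signals of Mospd1, Cep128 and Npy5r therefore differ between the 2 tables, and which is right cannot be told from them.

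The 90 genes lower in p65-/- tumour cells with p65+/+ steady had a p65-/- tumour signal within 2-fold of both p65+/+ arrays in 52 and below both in 32. Kcnn4, a calcium-activated potassium channel, had 267 and 1606 in p65-/- tumour and pre-injection cells and 644 and 543 in p65+/+ cells, a difference of -2.84. Upp1, a uridine phosphorylase, had 170 and 892, against 1383 and 1038 (-2.80). Sema7a, a membrane-anchored semaphorin, had 56.5 and 788, against 411 and 565 (at least -2.63). The p65-/- tumour array stood alone as the low one for Upp1 and Sema7a. Chrm3, a muscarinic receptor gene, had 135 and 665, against 132 and 112 (-2.53), and here the p65-/- pre-injection array was the one apart.

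The functions behind these classes were described with 49 gene lists holding 1308 entries, each by its counts and its median beside those of all genes. The median difference was above 0 in 37 lists and below 0 in 12, and it ran between -0.74 and 1.31. That tally depends on the scaling, since 17 lists were above 0 and 32 below after scaling to the 75th percentile, where the median of all genes was -0.23, and 21 above and 28 below after quantile normalization, where it was -0.16. Set against the median of all genes, 31 lists lay above it and 18 below, and 29 of the 49 kept their side under each of the 10 alternatives that gave them a value. The lowest lists were targets of ATF4 and outputs of Ras-MAPK signalling, and the highest was ubiquitin ligases.

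**Figure D4:**
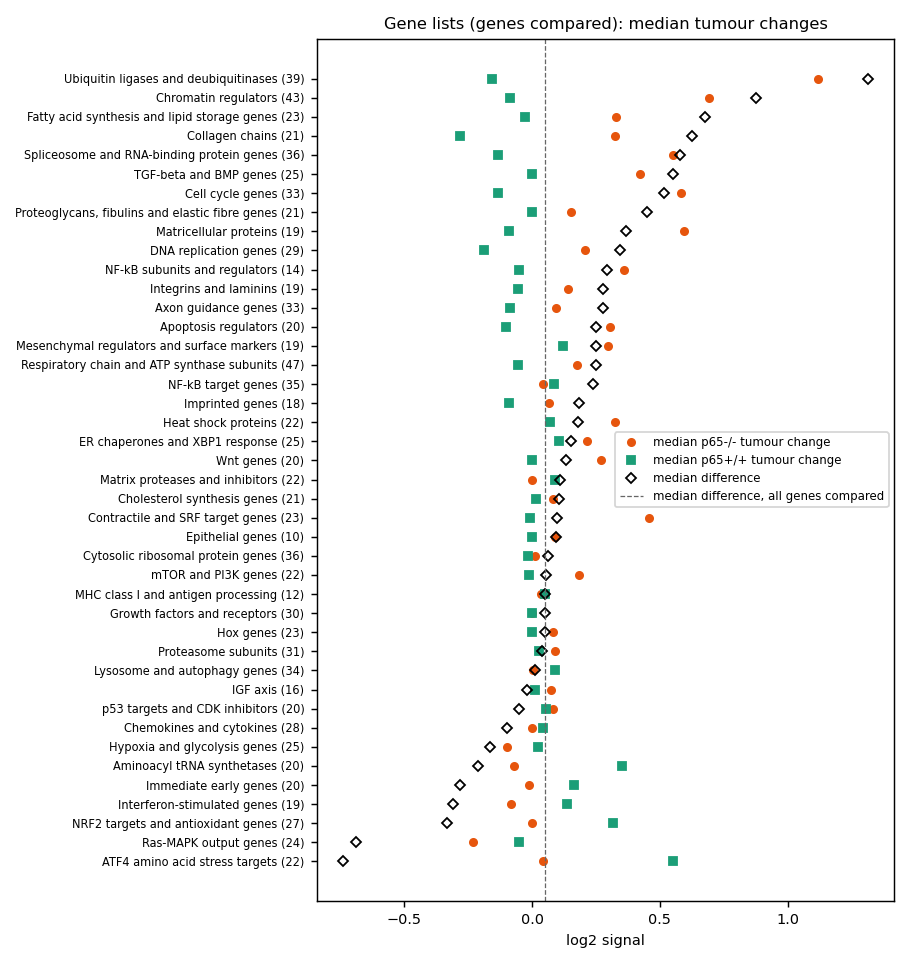
Median log2 tumour change in p65-/- cells (circles) and in p65+/+ cells (squares) and median difference (diamonds) of the gene lists with at least 10 genes compared, sorted by the difference; the number of genes compared is in brackets and the dashed line is the median difference of all genes, 0.05. Ubiquitin ligases lie highest at 1.31 with the p65-/- change positive and the p65+/+ change negative, and ATF4 targets lowest at -0.74, where the p65+/+ change is 0.55 and the p65-/- change 0.04.

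NF-kB target genes showed differences in both directions although p65 was absent on the p65-/- side. Of 35 compared, 12 had a difference of 1 or more (34.3%, against 14.6% of all genes) and 2 had one of -1 or less (5.71%, against 2.72%), with a median of 0.24 against 0.05 over all genes. The median was 0.06 after scaling to the 75th percentile, against -0.23 over all genes, and 0.11 without genes whose p65-/- pre-injection array alone was low, against 0.00. In 2 of the 12 the p65-/- pre-injection array alone was low. That rule requires the other 3 arrays to lie within 1 of each other. It therefore leaves out Ptx3, Ccl2 and Ptgs2, given next, where that array was also the lowest. Higher in p65-/- tumour cells with p65+/+ steady were 8 targets. Besides Cxcl1, Ptx3, a secreted pattern recognition protein, had 496 and 25.7 in p65-/- tumour and pre-injection cells and 1143 and 1003 in p65+/+ cells (at least 2.31). The monocyte chemokine gene Ccl2 had 506 and 198, against 3339 and 2671 (1.03), and the prostaglandin synthase gene Ptgs2 had 1245 and 437, against 5627 and 4232 (1.10). In these 3 the p65-/- tumour signal stayed under that of both p65+/+ arrays. The regulators of NF-kB signalling Tnfaip3 and Nfkbiz had differences of 1.44 and 1.53, and the growth arrest gene Gadd45b one of 1.43. For Nfkbiz the p65-/- pre-injection array alone was low. The 2 negative ones were Ccl5 and Il6, given above.

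Because Cxcl1 and Il6 are known NF-kB targets that moved in different genotypes, the 250 bases upstream of their RefSeq start sites (build GRCm38.p6) are printed 5′ to 3′, with a match to the kB motif (GGGA and TTCC with 2 bases of any kind between them) in capitals. Cxcl1 (chr5:90890995-90891244, plus strand) was higher in p65-/- tumour cells alone, and Il6 (chr5:30012864-30013113, plus strand) in p65+/+ tumour cells alone.
Cxcl1: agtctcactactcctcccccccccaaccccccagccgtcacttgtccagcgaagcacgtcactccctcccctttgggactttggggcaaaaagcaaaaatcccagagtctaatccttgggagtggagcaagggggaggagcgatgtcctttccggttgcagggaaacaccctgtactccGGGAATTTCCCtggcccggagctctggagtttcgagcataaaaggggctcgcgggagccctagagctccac
Il6: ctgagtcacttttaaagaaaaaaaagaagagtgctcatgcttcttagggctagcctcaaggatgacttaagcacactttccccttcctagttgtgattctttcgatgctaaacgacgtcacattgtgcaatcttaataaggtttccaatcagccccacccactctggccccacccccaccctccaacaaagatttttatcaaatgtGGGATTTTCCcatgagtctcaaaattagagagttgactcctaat
The match begins 71 bases before the start site in Cxcl1, where capitals cover 2 overlapping matches on opposite strands, and 44 bases before it in Il6. The motif was searched on both strands, its reverse complement being GGAA and TCCC around 2 bases. It was in the 250 bases of 1.36% of 27025 genes, in 5 of 26 NF-kB targets compared that had a promoter in the table (19.2%), in 1.45% of genes with a difference of 1 or more, in 2.18% of those with -1 or less and in 0 of 32 genes that moved in opposite directions. A match is a string of letters and not a measured binding site, and its absence from this window says nothing of binding elsewhere.

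Chemokines and cytokines held members in both directions. Of 28 compared, 5 had a difference of 1 or more (17.9%, against 14.6% of all genes) and 3 one of -1 or less (10.7%, against 2.72%), with a median of -0.10. The positive ones were Cxcl12, Cxcl1, Cxcl5, Cx3cl1 and Ccl2, and the negative ones Ccl5, Il6 and Kitl. For Cxcl1 and Ccl2 the p65-/- signal moved up, for Cxcl5 and Cx3cl1 the p65+/+ signal moved down, and for Cxcl12 both happened. Kitl, the ligand of the receptor Kit, had 88.9 and 94.2 in p65-/- tumour and pre-injection cells and 851 and 400 in p65+/+ cells.

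Targets of ATF4, the transcription factor that amino acid shortage and endoplasmic reticulum stress induce, moved up in p65+/+ tumour cells and on balance stayed level in p65-/- cells. All 22 genes compared were higher in p65+/+ tumour than pre-injection cells, against 43.7% of all genes, and 12 were higher and 9 lower in p65-/- cells. The medians were 0.04 in p65-/- cells and 0.55 in p65+/+ cells, and the median difference was -0.74. The difference was -1 or less in 4 (2.72% over all genes) and 1 or more in 0 (14.6%). Atf5, a related transcription factor, had 262 and 496 in p65-/- tumour and pre-injection cells and 534 and 167 in p65+/+ cells (-2.596). Slc7a11, the cystine transporter, had 46.4 and 21.5, against 478 and 155, and Ppp1r15a, a phosphatase subunit that restores translation, had 199 and 294, against 436 and 255 (-1.34). Chac1, given above, was the other. The serine synthesis gene Phgdh had 3927 and 5454, against 5298 and 3720 (-0.98). Atf4 itself moved up in both genotypes by less than 2-fold, with changes of 0.41 and 0.55. The 3 members with a difference above 0 were Nupr1, Vldlr and Slc7a3. Aminoacyl tRNA synthetases, several of which ATF4 is known to induce, had 8 of 20 higher in p65-/- tumour than pre-injection cells (40.0%, against 52.0% of all genes) and 16 of 20 in p65+/+ cells (80.0%, against 43.7%). Their median difference was -0.21, with 1 gene of the 20 at 1 or more (14.6% of all genes) and 1 at -1 or less (2.72%).

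Outputs of Ras-MAPK signalling moved down in p65-/- tumour cells and little on balance in p65+/+ cells. Of 24 compared, 8 had a difference of -1 or less (33.3%, against 2.72% of all genes) and 1, the vascular growth factor gene Vegfa, had one of 1 or more (4.17%, against 14.6%), and the median was -0.69. In p65-/- cells 17 were lower in the tumour (70.8%, against 45.0% of all genes) and 6 higher, and in p65+/+ cells 12 were lower and 11 higher. The feedback inhibitor gene Spry4 had 72.9 and 384 in p65-/- tumour and pre-injection cells and 829 and 405 in p65+/+ cells (at least -3.08), moving in opposite directions. Among phosphatases that switch off MAP kinases, Dusp5 had 371 and 956, against 1267 and 812 (-2.01). Dusp6 had 460 and 1369, against 1841 and 2197 (-1.32), and Dusp4 had 215 and 755, against 227 and 244 (-1.71). The array apart was p65-/- tumour for Dusp5 and Dusp6 and p65-/- pre-injection for Dusp4. The transcription factor gene Fosl1 had 966 and 2400, against 1819 and 1481 (-1.61), and Egr1 had 375 and 837, against 1167 and 1277 (-1.03). The urokinase receptor gene Plaur (-1.37) and the ephrin receptor gene Epha2 (-1.07) completed the 8. The introduced HRAS was not measured by any value used here.

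**Figure D5:**
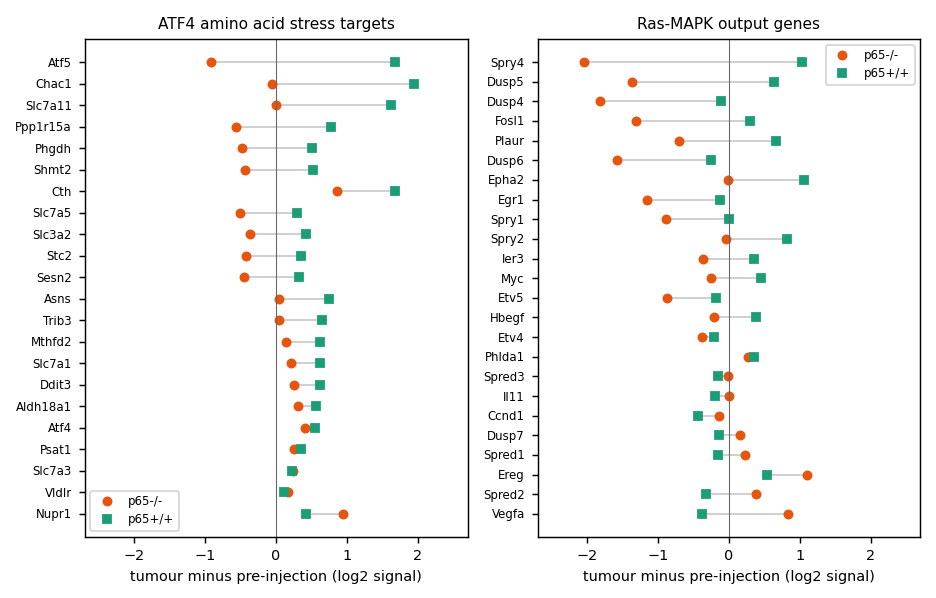
Log2 tumour change of each compared gene in p65-/- cells (circles) and p65+/+ cells (squares) for ATF4 targets (left) and Ras-MAPK outputs (right), sorted by the difference. On the left all 22 squares lie right of 0 while circles straddle it; on the right 17 of 24 circles lie left of 0, with Spry4 at -2.05 and its square at 1.03.

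Antioxidant and interferon-stimulated genes also had medians below 0, smaller in size. NRF2 targets and antioxidant genes had a median difference of -0.33, with 4 of 27 at -1 or less (14.8%, against 2.72% of all genes) and 0 at 1 or more (14.6% of all genes). Of the 27, 21 were higher in p65+/+ tumour than pre-injection cells (77.8%, against 43.7%). Nqo1, a quinone reductase, had 320 and 453 in p65-/- tumour and pre-injection cells and 1621 and 763 in p65+/+ cells (-1.59). The metallothionein gene Mt1 had 278 and 1227, against 2906 and 3711 (-1.79), but 1 of its 2 probe sets was positive. Interferon-stimulated genes had a median of -0.31. Of the 19 compared, 3 were at -1 or less (15.8%, against 2.72%), namely Ifitm1, Ifitm3 and Ifi35, and 0 at 1 or more (14.6% of all genes). Ifitm3 had 3948 and 8418, against 7190 and 6207 (-1.30). All 3 were lower in p65-/- tumour than in p65-/- pre-injection cells. Irgm1, an interferon-induced GTPase gene that was not in the list, went the other way, with 708 and 194, against 124 and 127 (1.90).

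Matrix and TGF-beta family genes had median differences above 0. Of 21 collagen chains, 7 had a difference of 1 or more (33.3%, against 14.6%) and 0 one of -1 or less, with a median of 0.63. Medians of the 2 changes differed in sign, and 15 of 21 were lower in p65+/+ tumour than pre-injection cells. Col5a1 had 2221 and 1117 in p65-/- tumour and pre-injection cells and 942 and 1836 in p65+/+ cells (1.95), and Col6a2 had 1730 and 851, against 937 and 1352 (1.55). In 2 of the 7, Col8a1 and Col11a1, the p65-/- pre-injection array alone was low. Among proteoglycan and elastic fibre genes, 5 of 21 were positive (23.8%) and 1, Lum, negative (4.76%). Fbln2, the matrix glycoprotein fibulin 2, had 2573 and 178, against 396 and 768 (4.81). The collagen crosslinking enzyme gene Lox had 4833 and 699, against 2955 and 3238 (2.92), with p65-/- pre-injection alone low.

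Of 25 TGF-beta and BMP family genes compared, 10 were positive (40.0%, against 14.6% of all genes) and 3 negative (12.0%, against 2.72%), with a median of 0.55. In 6 of the 25 the p65-/- pre-injection array alone was low, and without such genes the median was 0.24, against 0.00 over all genes. Receptor genes made up several of the positive ones. Bmpr2 had 599 and 133 in p65-/- tumour and pre-injection cells, against 742 and 829 in p65+/+ cells (2.33, positive in 2 of 3 probe sets). Bmpr1a had 836 and 190, against 906 and 967 (2.23), and Tgfbr1 had 258 and 77.0, against 373 and 379 (at least 1.58). These are cases of a p65-/- pre-injection array below the others, with a p65-/- tumour level still under p65+/+ levels. The activin subunit genes Inhba and Inhbb were both positive, while the activin inhibitor gene Fst, the ligand gene Tgfb1 and the BMP target Id2 were the 3 negative ones. Tgfb1 had 219 and 446, against 271 and 251 (-1.14).

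Housekeeping lists of the ubiquitin, chromatin, splicing and cell cycle machinery had high medians that went with the p65-/- pre-injection array. Of 39 ubiquitin ligases and deubiquitinases, 23 had a difference of 1 or more (59.0%, against 14.6%) and 1, Nedd4l, one of -1 or less. The median was 1.31, with 1.12 in p65-/- and -0.16 in p65+/+ cells, and in 21 of the 39 the p65-/- pre-injection array alone was low, against 9.41% of all genes. Cul4b, a scaffold of cullin ligases, had 800 and 203 in p65-/- tumour and pre-injection cells and 794 and 1167 in p65+/+ cells. Usp9x, a deubiquitinase, had 465 and 139, against 678 and 903. Its p65-/- tumour level lay nearer to the p65+/+ levels than to the p65-/- pre-injection level. Chromatin regulators had 19 of 43 positive (44.2%) and 1 negative with a median of 0.88, and 14 had that array alone low. For spliceosome and RNA-binding protein genes the count was 14 of 36 positive (38.9%) and 0 negative, with a median of 0.58 and 12 with that array alone low. Cell cycle genes had 12 of 33 positive (36.4%) and 0 negative, 10 of the 12 with that array alone low, and a median of 0.51. Without the genes for which that array alone was low, the medians were 0.66 for ubiquitin ligases, 0.53 for chromatin regulators, 0.26 for spliceosome genes and 0.32 for cell cycle genes, against 0.00 over all genes.

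Lipid genes were mixed. Of 23 fatty acid synthesis and lipid storage genes, 5 were positive (21.7%, against 14.6% of all genes) and 2 negative (8.70%, against 2.72%), with a median of 0.68. Fabp5, a fatty acid binding protein, had 1885 and 570 in p65-/- tumour and pre-injection cells and 850 and 1516 in p65+/+ cells (2.56), and Acsl3, an acyl-CoA synthetase, had 477 and 196, against 335 and 586 (2.09). The negative ones were the lipid droplet protein gene Plin2, with 2484 and 3783, against 3812 and 2140 (-1.44), and the fatty acid synthase gene Fasn, with 1588 and 2667, against 1629 and 1285 (-1.09). In all 4 the genotypes moved in opposite directions, though not by 2-fold on each side.

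Several functions gave counts of positive differences near or under the background. Over all genes, 14.6% had a difference of 1 or more and 2.72% one of -1 or less. Of 36 cytosolic ribosomal protein genes, 2 were positive and 0 negative, with a median of 0.06, and of 31 proteasome subunits 5 were positive and 0 negative, with a median of 0.04. Lysosome and autophagy genes had 3 of 34 positive and 2 negative, with a median of 0.01. After scaling to the 75th percentile these 3 medians were -0.23, -0.25 and -0.28, against -0.23 over all genes.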

How the data were processed

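The authors deposited a series matrix of 1 linear signal intensity for each of 45037 probe sets on 4 Affymetrix arrays. Probe summary and scaling are not given in the sources used here. Per the file headers, the scanner intensity files were not normalised; they served for array quality only. A further table deposited by the authors, named log2 ratios, was found to hold a signed quotient of log2 levels, treated as a score and used as an alternative. Per the labels, 6 ug of total RNA was labelled with biotin.

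Signals were converted to log2 (values under 1 set to 1), with no further normalization, and floored at each array's median (92.7, 87.8, 92.5 and 93.4 for p65-/- tumour, p65-/- pre-injection, p65+/+ tumour and p65+/+ pre-injection cells). The gene value was that of its probe set with the highest mean signal, with platform annotation of 2016. Of the probe sets, 34945 had 1 gene, 932 several and 9160 were unlisted. Named genes were the 5 with the largest difference per class and direction (for genes changed alike, the largest smaller change), with a signal of 200 on some array and no probe set of opposite sign, and up to 4 members of each list, besides members that define a list, genes that complete a count of 5 or fewer, and genes chosen after their values were seen. Members and lists were chosen with earlier results of these data known. No p-value was computed, and the sorting into classes was tested on simulated data. Promoter sequences came from RefSeq.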

Additional observations from a re-analysis of the deposited data

Results flagged for a closer look

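For 18 of the genes named, the 2 genotypes moved in opposite directions, by 2-fold or more on each side. Each genotype had 1 array pair. With 1 array per group the difference was not tested. The log2 differences were 6.38 for Meg3, 5.93 for Ndn, 5.87 for Cdh11, 5.24 for Cxcl12, 4.90 for Bhlhb9, 4.51 for Tmem45a, 3.93 for Peg12, 3.76 for Ccn3 and 3.63 for Tagln. They were -6.29 for Igfbp6, -5.86 for Dynap, -5.28 for Clu, -4.95 for Mlycd, -4.83 for Fst, -3.08 for Spry4, -2.97 for Itgb7, -2.78 for Ccl5 and -2.45 for Egln3. Values that rest on a floor are lower limits in size.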

How the results depend on the processing

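No paired analysis was possible because each group had 1 array, and for the same reason no array could be left out of a difference. Over 10 alternatives, positive differences numbered 1257 after scaling to the 75th percentile, 1246 with probe sets averaged per gene and 832 without genes whose p65-/- pre-injection array alone was low, an alternative chosen after seeing the data. By its definition that last alternative leaves out only genes with a positive difference. Negative differences numbered 713 after quantile normalization, 693 after scaling to the 75th percentile and 1125 in the authors' deposited table. Quantile normalization and that scaling moved the median difference to -0.16 and -0.23, and the positive share to 65.9% and 64.5%. Genes changed in p65-/- cells alone numbered 853 with probe sets averaged and 384 without the genes low on that array. Genes changed in p65+/+ cells alone numbered 31 with the floor at the 70th percentile, 34 with all 4 arrays above the floor and 203 in the authors' deposited table. Genes changed alike numbered 20, 18 and 303 under those 3 settings, and genes changed in opposite directions 23, 18 and 325, besides 88 with no floor and 31 with probe sets averaged. Of 1661 values of named genes, 1479 moved by less than the probe set spread and 181 moved further, and 1 of a gene with a difference of 1 or more in size turned its sign, that of Vcan, at -0.27 with probe sets averaged. Another 15 sign turns were of 6 genes with a difference under 1 in size. Of the 49 list medians, 23 kept their sign under each alternative that gave them a value, among them all 10 of 0.5 or more in size, and 26 did not. The sign turned in 20 lists after scaling to the 75th percentile and 16 after quantile normalization, where the median of all genes also fell below 0, and in 5 without genes low on the p65-/- pre-injection array alone. Examples are matrix proteases, -0.18 after that scaling in place of 0.11, MHC class I genes, -0.24 in place of 0.05, and mesenchymal regulators, -0.12 without those genes in place of 0.25. Relative to the median of all genes, 20 lists changed side under some alternative. The range was 0.66 to 1.31 for ubiquitin ligases, -1.03 to -0.57 for ATF4 targets and -0.98 to -0.68 for Ras-MAPK outputs. The causes were not tested. Signals near the floor limit the size of many differences.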
